A study of Mus musculus with 96 samples.

Results

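Alpha- and beta-tubulin are the paired subunits of microtubules, the polymers that build the meiotic spindle of the egg, the asters of the fertilised egg and the spindles of the cleavage divisions. Each subunit is encoded by several genes, or isotypes, which differ mainly in the tail at the end of the protein, where enzymes add and remove modifications. Cells also hold tubulin mRNA in check through an autoregulatory loop, in which surplus free tubulin marks translating tubulin mRNA for decay.

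The genes described here are 9 of 55401 gene rows: the beta-tubulins Tubb2a, Tubb2b, Tubb3, Tubb4b, Tubb5 and Tubb6 and the alpha-tubulins Tuba1a, Tuba1b and Tuba1c, chosen by their GENCODE mouse symbols. All 9 were found, and each had a count in 90 to 96 of the 96 libraries. Other tubulin genes are given only as a list at the end.

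The libraries come from single oocytes and embryos of strain C57BL/6J, untreated, from females superovulated with PMSG and hCG, and embryos were sired by males of that strain. Cumulus cells had been taken off with hyaluronidase and embryos were kept in KSOM. There were 8 oocytes and 7 morulae of about 84 h. Between them lay embryos timed in hours from fertilization: 5 each at 0 h, 2 h, 8 h, 10 h, 12 h, 14 h and 20 h, 8 each at 16 h and 36 h, and 2, 3, 9, 10 and 6 for the 4 h, 6 h, 18 h, 22 h and 24 h groups. Collection began 12 h after hCG, from females with a plug, so fertilization was not timed in each embryo. The embryos of 0 h to 36 h were processed as a cohort, whereas oocytes and morulae each went through a batch of their own, so batch and stage cannot be told apart in 0 h against oocytes and in morulae against 36 h. The labels do not say which embryos share a mother, so p-values measure the spread between these libraries. Titles of 4 h and 6 h libraries run in a single numbering series, which makes these hours less certain.

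Levels are in CPM, counts per 1000000 gene counts after each library's total is multiplied by its TMM factor, which evens out differences in composition. Gene counts per library had a median of 2099014, and 95 libraries lay between 564266 and 6795040. Morula replicate 4 had 10223 gene counts in all, so that 1 count there is worth 36.9 CPM, and its median correlation with the other morulae was 0.565. The TMM factor was 2.65 in that library and 1.52 in 10 h replicate 5, and 0.704 to 1.47 in the other 94. Replicate 5 of 10 h also stood apart, with a median correlation of 0.457 with its group. The 7 oocyte and egg markers summed to 18.5 CPM in it, against 15410 to 20190 CPM in the other 4 embryos of 10 h, and in morula replicate 4 they summed to 1622 CPM, against 50.2 to 95.8 CPM in the other 6 morulae. Of the markers of the labelled stages, 7 of 7 of the oocyte and egg had counts in oocytes, where they summed to 10310 to 15140 CPM. At 36 h 7 of 7 of the 2-cell program had counts, summing to between 500.0 and 3011 CPM. In morulae 6 of 6 morula markers had counts, summing to 0.0 to 155.7 CPM (median 76.5). That range overlapped the sums at 36 h (21.9 to 123.5 CPM) and at 2 h (54.9 to 76.9 CPM). Of 3 morula markers tested relative to 36 h, 1 was higher and 0 lower, so these markers set the morulae little apart. Blood and oviduct markers summed to over 1000 CPM in 6 of the 96 libraries, led by a haemoglobin gene in 5 of them and by Ovgp1 in 22 h replicate 7. They were 22 h replicates 4 (5691 CPM), 10 (4995), 9 (2651) and 7 (1104), 0 h replicate 1 (2317) and 16 h replicate 4 (2017), while the other 90 had a median of 13.1 CPM. Their part in the tubulin values was not tested, and among the fits without 0 h replicate 1 a tubulin call changed only for Tubb2b at 2 h relative to 0 h. CPM is relative to the other mRNA of a library, and the total RNA of an embryo was not measured, so less of a transcript and more of the others cannot be told apart. The cDNA was primed on poly(A) tails, so a change in level cannot be told apart from a change in tail length either.

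Coordinates are those of GRCm38 in GENCODE M21. Tubb2a (chr13:34074274-34078007, minus strand) and Tubb2b (chr13:34126748-34130466, minus strand) are neighbours, as are Tuba1b (chr15:98931425-98934565, minus strand), Tuba1a (chr15:98949837-98953703, minus strand) and Tuba1c (chr15:99029891-99038110, plus strand). Tubb3 is at chr8:123411424-123422015 (plus strand), Tubb4b at chr2:25222160-25224702 (minus strand) and Tubb5 at chr17:35833921-35838306 (minus strand).

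The ends of the coding sequences of the beta genes Tubb2a, Tubb2b, Tubb3, Tubb4b and Tubb5 and of the alpha gene Tuba1c are printed because they encode the isotype tails and show how alike the neighbours Tubb2a and Tubb2b are. Each line holds the last 60 coding bases, 5′ to 3′ on the coding strand, from the GENCODE M21 transcripts, and the stop codon is in capitals.
Tubb2a: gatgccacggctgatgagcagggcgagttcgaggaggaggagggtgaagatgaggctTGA
Tubb2b: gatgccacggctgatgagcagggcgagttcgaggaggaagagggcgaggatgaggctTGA
Tubb3: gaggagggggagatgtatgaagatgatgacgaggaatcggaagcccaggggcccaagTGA
Tubb4b: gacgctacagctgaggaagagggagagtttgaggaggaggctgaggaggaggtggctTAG
Tubb5: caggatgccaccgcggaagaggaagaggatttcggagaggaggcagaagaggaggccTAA
Tuba1c: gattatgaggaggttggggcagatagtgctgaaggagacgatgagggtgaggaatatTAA

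The copies differ in how far their reads can be told apart. The coding sequences of Tuba1a and Tuba1b were 98.3% identical and those of Tubb2a and Tubb2b 96.5%, whereas Tubb6 and Tubb3, the next most alike pair of beta genes, shared 85.9%. Of all 50-base words in the transcript, 72.9% of Tuba1a, 73.8% of Tuba1b and 61% of Tuba1c also occurred in another gene. The shares were 49.6% for Tubb2a and 39.3% for Tubb2b, mostly with each other, and 50.9% for Tubb4b, mostly with the processed pseudogene Tubb4b-ps1. Tubb3 and Tubb6 shared 0% and Tubb5 0.115%, and in the 3′ untranslated regions the share was 0% for 8 genes and 0.198% for Tubb5. Among deposited non-zero values, 83.2% of those of Tuba1b were not whole numbers, as were 71.9% for Tuba1a, 55.2% for Tubb4b, 43.5% for Tubb2a, 36.7% for Tubb2b, 10.4% for Tuba1c and 4.26% for Tubb3, against 0% for Tubb5 and Tubb6. These shares followed the shared words only in part, since Tuba1c had 10.4% beside 61% of words shared. By their shared words, values of the alpha genes are best read together, and those of Tubb2a with Tubb2b. Tubb3 overlaps Gm20388, Tubb4b overlaps Fam166a on the other strand, and Tuba1a and Tuba1b overlap Gm49450. The assay does not mark strand, so overlapping reads cannot be assigned.

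**Figure D1:**
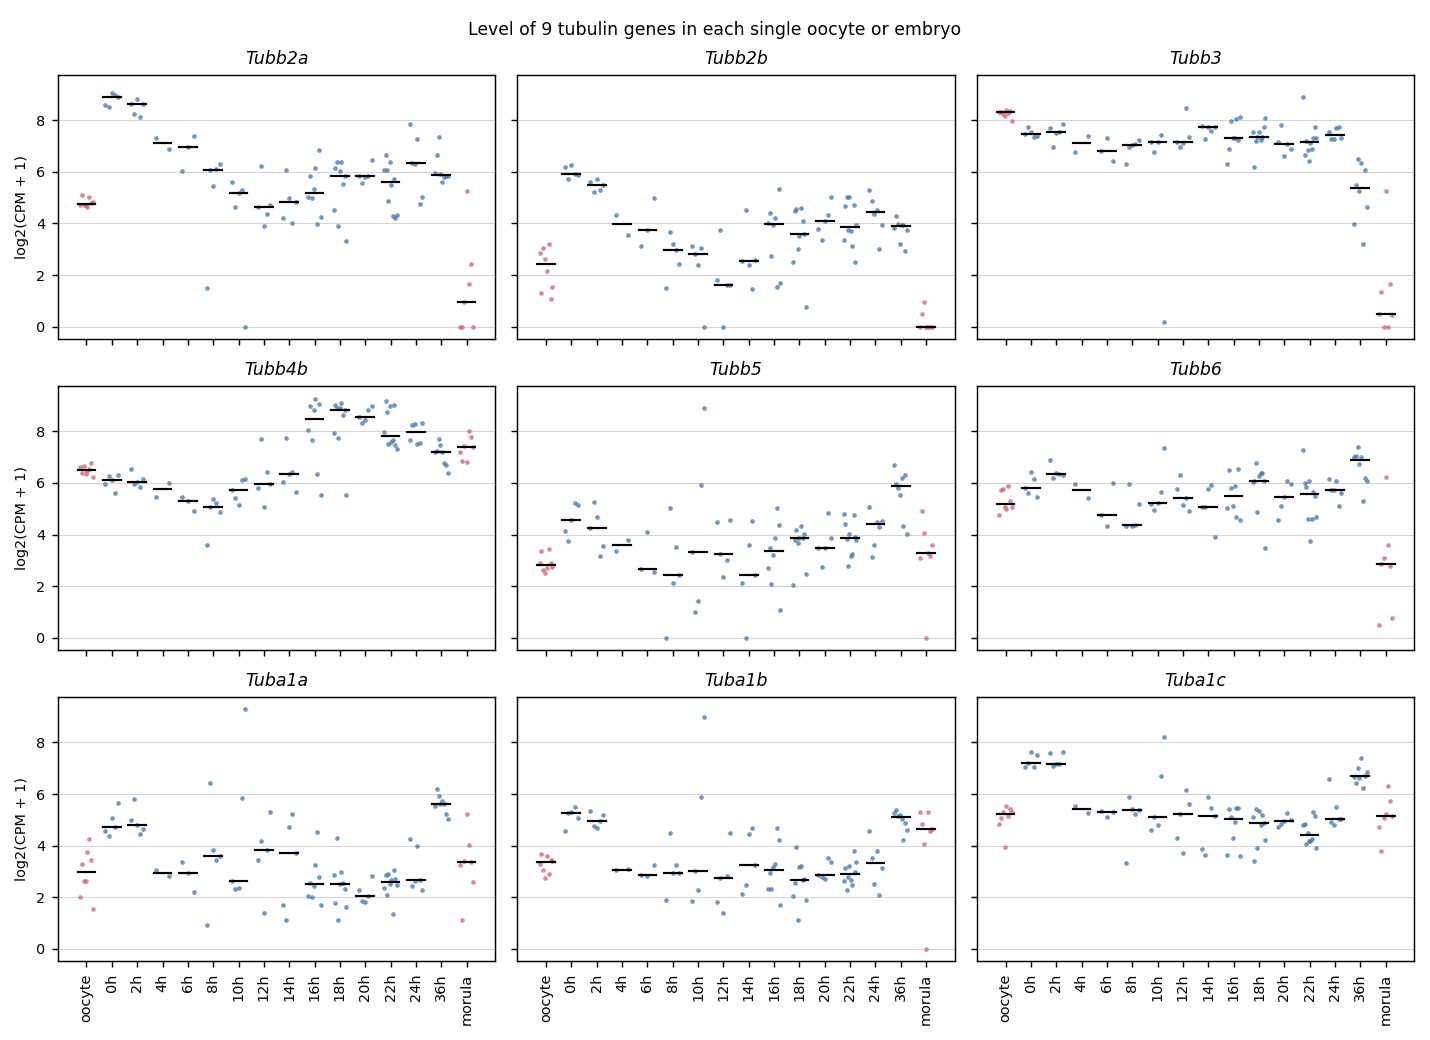
Level of each tubulin gene as log2(CPM + 1) (y axis) in every library, by stage in order of time (x axis); points are single oocytes or embryos, bars are group medians, and red points are the oocyte and morula batches. Tubb2a and Tubb2b are highest at 0 h, Tubb4b from 16 h to 24 h, and the alpha genes at 0 h, 2 h and 36 h, apart from a single 10 h library.

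The leading beta gene changed over the course: Tubb3, then Tubb2a, Tubb3 again and Tubb4b. Per kb of exon, Tubb3 made up 67.1% of the mean beta-tubulin level in oocytes. At 0 h Tubb2a made up 59.8% and Tubb3 20.6%. Tubb3 led again at 12 h with 53.2%, Tubb4b led at 20 h with 57%, and at 36 h the beta level was spread over Tubb4b (33.1%), Tubb2a (22.8%), Tubb6 (21.1%), Tubb3 (12.0%) and Tubb5 (8.29%). In morulae Tubb4b made up 82.9%, and 92% without replicate 4. Among the alpha genes Tuba1c held the largest part of the mean level in every group except 10 h, from 46.5% in morulae to 70.6% at 4 h. At 10 h Tuba1c held 23.4% with all 5 libraries and 51.4% without replicate 5.

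The beta genes together stood above the alpha genes per length in 15 of the 16 groups. In oocytes the mean beta level was 244.5 CPM per kb and the alpha level 24.1, a ratio of 10.2. The 0 h embryos had 468.2 CPM per kb of beta and 104.5 of alpha, a ratio of 4.48. By 8 h both were lower, with 130.4 of beta and 34.5 of alpha and a ratio of 3.78. At 18 h beta stood at 337.9 and alpha at 18.3, a ratio of 18.5, while at 36 h they stood at 203.0 and 91.9, a ratio of 2.21. Morulae had 98.4 of beta and 36.5 of alpha, a ratio of 2.69. At 10 h the ratio was 0.912 with all libraries and 3.63 without replicate 5. These are ratios of reads per annotated exon length and not of protein. They cover the 9 genes only and depend on which genes are counted. Among tubulins left out, the alpha-like Tubal3 had a mean of 151.9 CPM at 12 h, against 60.9 CPM for the 3 alpha genes summed. Tuba4a had 89.9 CPM at 36 h, against 190.0 CPM for that sum.

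**Figure D2:**
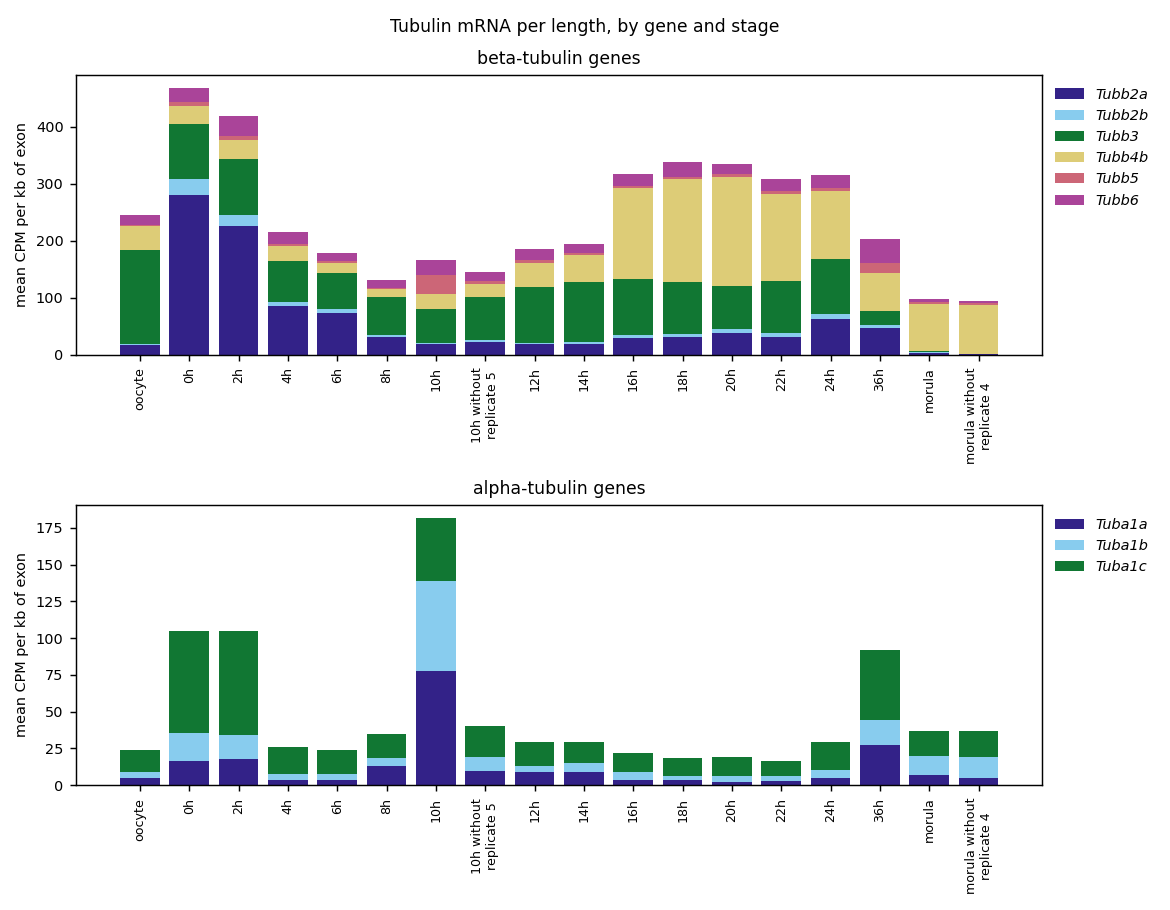
Mean CPM per kb of exon (y axis, from 0) of the 6 beta-tubulin genes (upper panel) and the 3 alpha-tubulin genes (lower panel), stacked by gene for each stage (x axis), with 10 h and morulae also drawn without the library that stood apart. Tubb2a is the largest beta part at 0 h (59.8%), Tubb4b at 18 h (53.2%) and in morulae (82.9%), and the alpha bar at 10 h drops to 40.0 CPM per kb without replicate 5.

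Of the 9 genes, 7 rose and 2 fell at 0 h relative to oocytes (edgeR adjusted p under 0.05), where 45.7% of the 9556 genes tested changed, 23.3% being higher and 22.5% lower. The 7 risers are well above that share and the 2 that fell are close to it. The risers include Tubb2a with Tubb2b, and all of the alpha genes, which share words within each set. Such genes are not separate measurements, so counts in these comparisons can hold the same change more than once. At 12 h relative to 0 h, 0 of 9 rose and 4 fell, against 39.0% of 8211 genes called, 19.7% higher and 19.4% lower. At 24 h relative to 12 h, 3 rose and 0 fell, against 21.6% of 11083 genes, 13.4% higher and 8.23% lower. Embryos of 36 h had 5 genes higher and 2 lower than 24 h, against 52.3% of 12636 genes, 29.1% higher and 23.2% lower. The same embryos had 4 genes higher and 3 lower than 0 h, close to the 64.7% of 12105 genes called, 39.5% higher and 25.1% lower. In morulae relative to 36 h, 0 rose and 7 fell, against 71.7% of 11216 genes, 28.2% higher and 43.5% lower. Without morula replicate 4, 1 rose and 7 fell. In each of the 3 directions with a count of 0, 0 genes also passed at an unadjusted edgeR p under 0.05 and 0 with DESeq2. A single fit of all 96 libraries, which pools their spread, did not call Tubb3 (adjusted p = 0.345), Tubb4b (0.588), Tubb5 (0.053), Tubb6 (0.484) and Tuba1a (0.0522) at 0 h relative to oocytes, nor Tubb5 (0.115), Tubb6 (0.126) and Tuba1a (0.330) at 36 h relative to 0 h, nor Tubb6 (0.0591) at 36 h relative to 24 h. Among the 2 h intervals, the single fit did not call Tubb2b at 2 h relative to 0 h (adjusted p = 0.924), which was not called with no filter on low counts either (0.177), nor Tubb2a and Tuba1c at 4 h relative to 2 h (adjusted p = 0.903 for both). Without 10 h replicate 5 and morula replicate 4, the single fit did call Tubb5 (0.0171) and Tuba1a (0.0138) at 0 h relative to oocytes, Tubb5 (0.0468) at 36 h relative to 0 h and Tubb6 (0.0298) at 36 h relative to 24 h. The median log2 change of the 9 genes was 1.98, -0.87, 0.43, 1.05, 0.04 and -2.47 in these comparisons, and over all genes tested it was -0.02, -0.02, 0.05, 0.05, 0.38 and -0.55.

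**Figure D3:**
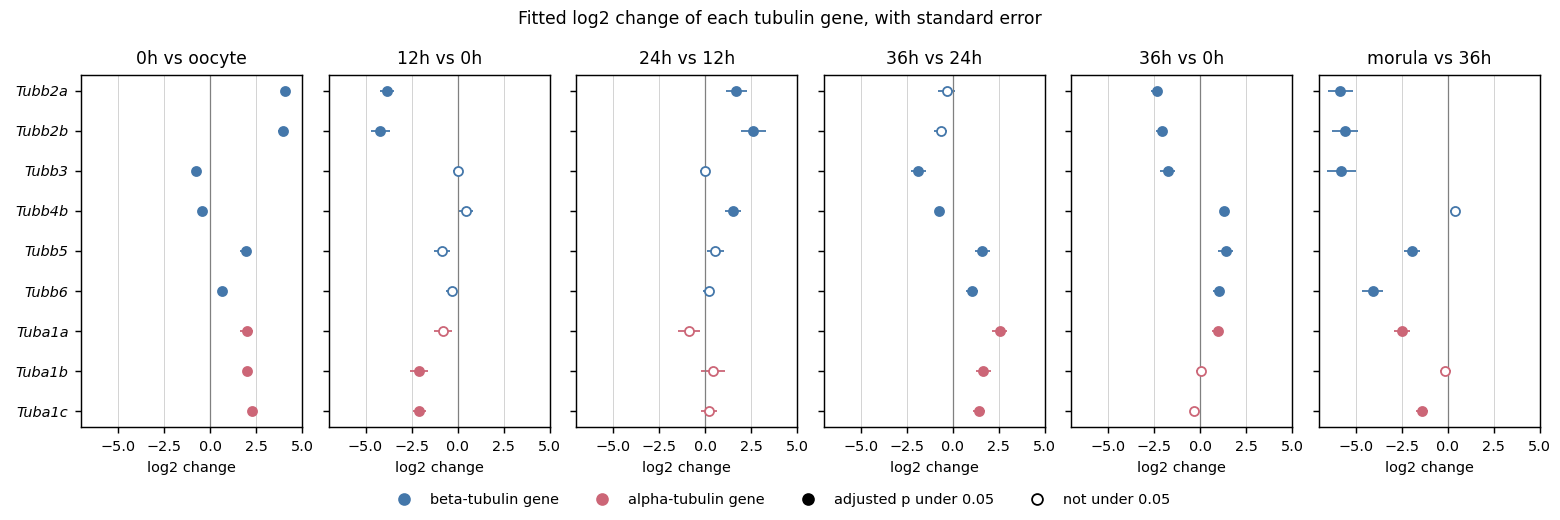
Fitted log2 change (x axis) of each tubulin gene (rows) in the 6 main comparisons (panels), with bars of 1 standard error; blue points are beta genes, red points alpha genes, and filled points passed an edgeR adjusted p of 0.05. Changes run from 4.09 for Tubb2a at 0 h to -5.83 for the same gene in morulae, and Tubb4b and Tuba1b are the open points in the morula panel.

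Tubb2a, a beta isotype abundant in neurons, was the most abundant tubulin mRNA of the newly fertilised embryo and low in the oocyte. It had 381.9, 368.2, 526.1, 503.7 and 473.8 CPM in the 0 h embryos, against 24.1 to 33.4 CPM (median 26.0) in oocytes. The groups were far apart, with a log2 change of 4.09 ± 0.13 (SE, edgeR adjusted p = 4.53e-17), a 17.0-fold higher level. By 12 h it had 24.0, 73.4, 13.9, 19.4 and 25.1 CPM, a fall of every embryo below every 0 h embryo (log2 change -3.85 ± 0.37, edgeR adjusted p = 2.25e-06). Group means in the hours between were 364.2 ± 73.5 CPM at 2 h (SD, n = 5), 137.6 ± 27.5 at 4 h (n = 2), 117.6 ± 49.98 at 6 h (n = 3), 51.4 ± 30.6 at 8 h (n = 5) and 29.0 ± 18.4 at 10 h (n = 5).

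At 24 h the level of Tubb2a was again higher than at 12 h. It ranged from 25.7 to 233.2 CPM (median 79.6), overlapping 12 h, and the log2 change of 1.69 ± 0.57 had an edgeR adjusted p of 0.0463. That call was lost in 8 of the 11 fits that left out 1 library (12 h replicates 1, 3, 4 and 5 and 24 h replicates 1, 2, 3 and 4), with adjusted p between 0.0644 and 0.114, and with no filter on low counts (adjusted p = 0.165). At 36 h Tubb2a had 47.2 to 162.1 CPM (median 58.1), and relative to 0 h it stayed lower by -2.37 ± 0.29 (edgeR adjusted p = 1.01e-06).

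Tubb2b, the neighbouring isotype of the developing brain, followed Tubb2a at a lower level, and the group means of the pair correlated at r = 0.933 over the 16 groups, a description of genes that share words. It had 72.8, 51.7, 76.7, 60.03 and 57.5 CPM at 0 h, against 1.09 to 8.22 CPM (median 4.34) in oocytes. No oocyte reached the 0 h range, and the log2 change was 3.95 ± 0.29 (edgeR adjusted p = 9.17e-11). At 12 h the 5 embryos had 2.50, 12.2, 0.0, 2.04 and 2.04 CPM, a log2 change of -4.19 ± 0.52 from 0 h (edgeR adjusted p = 9.4e-06). From 12 h to 24 h it rose: 7.08 to 37.9 CPM (median 20.8) at 24 h, overlapping 12 h in 1 embryo of 12 h, with a log2 change of 2.62 ± 0.68 (edgeR adjusted p = 0.0142, called in 11 of 11 fits without 1 library). At 36 h it had 6.61 to 18.6 CPM (median 13.7), lower than at 0 h by -2.10 ± 0.28 (edgeR adjusted p = 3.07e-06). The change from 24 h, -0.66 ± 0.36, was not called (edgeR adjusted p = 0.134) but passed without 24 h replicate 5 (-0.86, adjusted p = 0.037) and without the titles that end in b (-1.01, adjusted p = 0.022).

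In morulae the Tubb2 pair was close to 0. Tubb2a had 0 CPM in 3 of 7 morulae, 0.950, 2.15 and 4.36 CPM in a further 3 and 36.9 CPM, which is 1 count, in replicate 4. Its log2 change from 36 h was -5.83 ± 0.68 (edgeR adjusted p = 6.29e-08), and without replicate 4 it was -5.86 ± 0.67. Tubb2b had 3 counts over the 7 morulae and 266 over the 8 embryos of 36 h. The ratio of its pooled count shares was 0.0134, with an exact 95% interval of 0.00275 to 0.0396 that covers the counting error of reads only.

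Windows from the last 100 bases of the transcripts are shown for Tubb2a, Tubb2b and Tubb3, because maternal mRNAs are held and released through elements there. The capitals mark the polyadenylation signal AATAAA in Tubb2a and the element TTTTAT in Tubb2b and Tubb3, a core of the cytoplasmic polyadenylation element. Each is 30 bases of the sense strand (GRCm38), the only strand searched. They lie at chr13:34074283-34074312 (minus strand), chr13:34126761-34126790 (minus strand) and chr8:123421910-123421939 (plus strand).
Tubb2a: gaaatctatatgAATAAAaaagcatgtgta
Tubb2b: aagttatatcatTTTTATgatgctgggaat
Tubb3: ttattcgtctgtTTTTATggtttgttttgt

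TTTTAT occurred in the last 100 bases of Tubb2b and Tubb3, 2 of the 9 genes, and of 12.9% of 21832 genes, and TTTTAAT in none of the 9 and 4.64% of genes. Its first base lay 31 bases from the end in Tubb2b and 94 in Tubb3, which also held AATAAA at 32. A match is a description of the letters and not of a site in use.

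Tubb3, the isotype best known from neurons, was the leading tubulin mRNA of the oocyte. It had 175.4, 210.4, 187.7, 162.1 and 167.2 CPM at 0 h, against 246.7 to 331.4 CPM (median 314.5) in oocytes. All 0 h embryos lay below all oocytes (log2 change -0.74 ± 0.11, edgeR adjusted p = 4.02e-06). From 0 h to 24 h its group means stayed between 112.9 CPM at 10 h and 197.2 CPM at 14 h, and none of its 2-hour steps passed the test. The 12 h embryos differed from 0 h by 0.02 ± 0.25 (edgeR adjusted p = 0.957).

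The fall of Tubb3 came between 24 h and 36 h and went on to the morula. At 36 h it had 8.27 to 88.8 CPM (median 40.5), against 153.4 to 214.4 CPM (median 170.7) at 24 h, with no overlap (log2 change -1.87 ± 0.41, edgeR adjusted p = 0.00123). Among morulae, 2 had 0 CPM, 4 had 0.356 to 2.18 CPM and replicate 4 had 36.9 CPM from 1 count. The log2 change from 36 h was -5.78 ± 0.79 with all morulae (edgeR adjusted p = 5.55e-07) and -5.88 ± 0.77 without replicate 4.

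Tubb4b, a widely expressed beta isotype that is also a component of cilia, had its highest group means at 16 h to 22 h and was still present in morulae. It had 60.9, 75.8, 68.6, 48.03 and 78.4 CPM at 0 h, against 74.3 to 108.7 CPM (median 89.7) in oocytes. These groups overlapped, and the log2 change of -0.42 ± 0.15 (edgeR adjusted p = 0.0207) was lost without oocyte replicate 1, 3, 5, 6 or 7 or 0 h replicate 4, with adjusted p between 0.0533 and 0.0844, and with no filter on low counts (adjusted p = 0.0691). The group mean was lowest at 8 h, 29.8 ± 11.5 CPM (SD, n = 5), and was 98.7 ± 65.6 at 14 h (n = 5), 335.3 ± 215.4 at 16 h (n = 8), 375.3 ± 169.8 at 18 h (n = 9) and 398.9 ± 78.7 at 20 h (n = 5).

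The step of Tubb4b from 14 h to 16 h did not pass the test in the pair of groups. The 16 h embryos had 44.98 to 605.8 CPM of Tubb4b (median 359.4), against 65.3, 213.4, 80.7, 84.4 and 49.6 CPM at 14 h. The log2 change was 1.75 ± 0.61 with an edgeR adjusted p of 0.0736, where 12.2% of 11036 genes passed, 5.62% higher and 6.60% lower. It passed without 14 h replicate 2 (2.27, adjusted p = 0.0278), without 16 h replicate 6 (1.90, adjusted p = 0.0262) and without 16 h replicate 8 (1.91, adjusted p = 0.0294), and DESeq2 gave an adjusted p of 0.0329. The ranges overlapped. The single fit of all libraries called it (1.79, adjusted p = 0.0106), as did that fit without 10 h replicate 5 and morula replicate 4 (1.88 ± 0.40, adjusted p = 0.00242).

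By 24 h Tubb4b had risen relative to 12 h. It had 179.2 to 322.2 CPM (median 252.2) at 24 h, against 55.4, 207.0, 32.7, 84.6 and 61.3 CPM at 12 h. A single 12 h embryo reached the 24 h range, and the log2 change was 1.51 ± 0.41 (edgeR adjusted p = 0.0184), or 1.36 without 12 h replicate 1 (adjusted p = 0.0568). At 36 h it had 83.6 to 209.2 CPM (median 146.2), overlapping 24 h, with a log2 change of -0.74 ± 0.23 (edgeR adjusted p = 0.013). This fall was not called when library size alone set the scale (-0.46, adjusted p = 0.167). All 36 h embryos nevertheless lay above all 0 h embryos (1.29 ± 0.24, edgeR adjusted p = 0.000143).

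In morulae Tubb4b had 145.9, 114.5, 171.1, 110.6, 259.8, 220.6 and 168.9 CPM, a range that overlapped 36 h. The log2 change from 36 h was 0.38 ± 0.28 (edgeR adjusted p = 0.217). Replicate 4 held 3 counts of it, and without that library the change was 0.56 ± 0.24 and passed (edgeR adjusted p = 0.0407). The median of all genes in this comparison was -0.55.

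The promoter of Tubb4b is printed because Tubb4b became the leading beta gene within the cohort. It is 300 bases around the RefSeq start site (chr2:25224653-25224952, minus strand, GRCm38.p6). Capitals mark CCAAT, the core of the box bound by the factor NF-Y, GGGCGG, the core of the GC box, and TATAAA, the letters of the TATA box. The TATAAA here begins at 18, after the start site.
Tubb4b: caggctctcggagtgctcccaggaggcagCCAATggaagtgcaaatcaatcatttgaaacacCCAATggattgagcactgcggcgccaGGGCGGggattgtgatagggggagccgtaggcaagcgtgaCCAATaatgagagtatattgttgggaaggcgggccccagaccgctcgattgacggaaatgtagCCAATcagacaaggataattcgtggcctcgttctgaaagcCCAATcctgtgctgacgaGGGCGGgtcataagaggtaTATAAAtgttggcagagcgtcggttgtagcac

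The search covered both strands. CCAAT occurred 5 times in Tubb4b, with its first base at -221, -188, -122, -59 and -19, counted from 0 at the start site. Of 32851 promoters of this length, 37.4% held at least 1 CCAAT and 0.271% held at least 5. Promoters were matched for 7 of the 9 genes, not for Tubb2b and Tubb6. Tubb5 held 2 CCAAT, Tubb3, Tuba1a and Tuba1c 1 each, and Tubb2a and Tuba1b 0. GGGCGG was found in 6 of the 7 and in 35.7% of promoters, and TATAAA in Tubb2a, at -29, in Tubb4b, at 18, and in 13.6% of promoters. These are letters in a window and not measured binding.

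Tubb4b-ps1, the pseudogene whose transcript shares 43.6% of Tubb4b's words, had the group means most like those of Tubb4b (r = 0.972 over 16 groups). Its mean was 12.2 ± 9.80 CPM at 14 h (SD, n = 5), 41.4 ± 24.7 at 16 h (n = 8), 53.6 ± 7.68 at 20 h (n = 5) and 13.3 ± 9.12 in morulae (n = 7). Fam166a, which overlaps Tubb4b on the other strand, came next at r = 0.970. Reads where Fam166a and Tubb4b overlap cannot be assigned to either. Of the deposited non-zero values of Tubb4b-ps1, 0% were not whole, against 55.2% of those of Tubb4b. Whether Tubb4b-ps1 holds reads of Tubb4b was not tested.

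Tubb5, a general beta isotype of dividing cells, and Tubb6, an isotype found in many tissues at low level, changed less at 0 h than the Tubb2 pair. Tubb5 had 16.7, 12.5, 22.9, 36.6 and 34.0 CPM at 0 h, against 4.70 to 9.86 CPM (median 6.12) in oocytes, with no overlap (log2 change 1.94 ± 0.29, edgeR adjusted p = 7.25e-06). It rose again at 36 h, to 15.3 to 102.6 CPM (median 57.7), against 7.84 to 32.7 CPM (median 20.1) at 24 h. These groups overlapped, and the log2 change was 1.62 ± 0.42 (edgeR adjusted p = 0.00372). In morulae it had 0.0 to 29.4 CPM (median 8.83), a log2 change of -1.95 ± 0.43 from 36 h (edgeR adjusted p = 0.000256). The 0.0 CPM was in morula replicate 4, and without that library the morulae had 7.64 to 29.4 CPM of Tubb5.

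Tubb6 (chr18:67390717-67402749, plus strand) had 42.7 to 84.1 CPM at 0 h (n = 5), against 26.2 to 57.5 CPM in oocytes (n = 8), a change of 0.63 ± 0.21 (edgeR adjusted p = 0.0186) that was lost without 0 h replicate 3 (0.48, adjusted p = 0.0863). Its highest group was 36 h, with 38.4 to 166.4 CPM (median 116.4), against 33.5 to 69.3 CPM (median 52.5) at 24 h (log2 change 1.05 ± 0.30, edgeR adjusted p = 0.00676). In morulae it had 0.402, 6.27, 7.60, 73.7, 11.2, 5.81 and 0.713 CPM, where 73.7 CPM is 2 counts in replicate 4. The log2 change from 36 h was -4.08 ± 0.55 (edgeR adjusted p = 4.63e-07), and -4.09 ± 0.52 without replicate 4.

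The alpha genes rose together at 0 h and again at 36 h. Tuba1c, the most abundant of them per length, had 131.9, 148.0, 198.5, 132.7 and 181.1 CPM at 0 h, against 14.6 to 45.2 CPM (median 36.3) in oocytes. There was no overlap, and the log2 change was 2.25 ± 0.19 (edgeR adjusted p = 1.3e-09). Tuba1b, the isotype general to dividing cells, changed by 1.99 ± 0.23 and Tuba1a, the isotype of developing neurons, by 1.98 ± 0.35, again without overlap. Summed over the 3 genes, 0 h embryos had 177.2 to 269.8 CPM (n = 5), against 25.6 to 68.9 CPM in oocytes (n = 8). Markers of cumulus and granulosa cells, the somatic cells around the egg, summed to 32.1 to 508.6 CPM at 0 h (13 of 15 with a count, Foxl2 and Amh at 0), against 88.6 to 715.0 CPM in oocytes (12 of 15, Foxl2, Amh and Lhcgr at 0).

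At 4 h and 6 h the alpha sums lay below those of 0 h and 2 h. The sum was 195.4 to 262.2 CPM at 2 h (n = 5), 51.5 and 60.4 CPM at 4 h (n = 2) and 46.6 to 54.99 CPM at 6 h (n = 3). Tuba1c had 46.0 and 37.9 CPM at 4 h, against 190.9, 136.6, 144.2, 144.2 and 194.7 CPM at 2 h. Its log2 change was -1.90 ± 0.25 (edgeR adjusted p = 0.00965), and the call was lost without 4 h replicate 1 (adjusted p = 0.089) or replicate 2 (adjusted p = 0.223), each of which leaves a lone 4 h library that is assumed to vary like the 2 h group. Tuba1b at -2.03 ± 0.38 and Tuba1a at -2.22 ± 0.50 did not overlap either but had edgeR adjusted p of 0.0532 and 0.0905. Tuba1b passed without 2 h replicate 2 (adjusted p = 0.0332) or 5 (adjusted p = 0.0395).

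Relative to 0 h, the 12 h embryos had less Tuba1c (-2.08 ± 0.35, edgeR adjusted p = 0.000202) and Tuba1b (-2.08 ± 0.49, edgeR adjusted p = 0.00296), each without overlap. Tuba1a, at -0.81 ± 0.49, was not called (edgeR adjusted p = 0.203), but without 12 h replicate 5 it changed by -1.50 (adjusted p = 0.0199). Tubb5 likewise passed only without that library (-1.19, adjusted p = 0.0464, against 0.122 with it). At 12 h to 24 h none of the 3 alpha genes passed.

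At 36 h Tuba1a had 32.0 to 72.4 CPM (median 48.2), against 3.91 to 18.3 CPM (median 5.32) at 24 h, with no overlap (log2 change 2.56 ± 0.40, edgeR adjusted p = 7.69e-05). Tuba1b changed by 1.67 ± 0.39 (edgeR adjusted p = 0.00198) and Tuba1c by 1.42 ± 0.31 (edgeR adjusted p = 0.00103), both with some overlap. Relative to 0 h, only Tuba1a was higher at 36 h (0.95 ± 0.29, edgeR adjusted p = 0.00732). In morulae Tuba1a fell by 2.47 on the log2 scale relative to 36 h (edgeR adjusted p = 1.11e-05) and Tuba1c by 1.41 (edgeR adjusted p = 0.000491). Tuba1b, at -0.12 ± 0.32, had 0.0 to 38.9 CPM in morulae (median 23.9) and 17.7 to 40.9 CPM (median 33.2) at 36 h. Its 0.0 CPM was in morula replicate 4, and without that library the morulae had 15.7 to 38.9 CPM.

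Over the 12 consecutive steps of 2 hours from 0 h to 24 h, the 9 genes gave 0 calls higher and 3 lower. Over all genes 1.83% of 116719 tests passed, 0.884% higher and 0.946% lower, and DESeq2 called 7 of the tubulin tests. Beside Tuba1c and Tubb2a at 4 h relative to 2 h, the call was Tubb2b at 2 h relative to 0 h, where 8.25% of 8804 genes were called, 4.25% higher and 4.00% lower. Tubb2b had 47.4, 36.5, 51.7, 38.6 and 43.6 CPM at 2 h, with its highest value at 51.70 CPM, against a lowest of 51.71 CPM at 0 h. Its log2 change of -0.61 ± 0.18 (edgeR adjusted p = 0.0446) passed in 0 of 10 fits without 1 library, which gave adjusted p between 0.0501 and 0.116. Tubb2a at 4 h had 157.0 and 118.1 CPM, against 393.6, 304.0, 456.2, 275.4 and 392.1 CPM at 2 h (log2 change -1.36 ± 0.23, edgeR adjusted p = 0.0399). It was lost without 2 h replicate 1, 3 or 4 or either 4 h replicate, with adjusted p between 0.0631 and 0.271. At 4 h relative to 2 h, 2 of the 9 genes were called, both lower, against 0.233% of 10716 genes, 0.0840% higher and 0.149% lower. Tuba1a at 16 h relative to 14 h, -1.20 ± 0.64, had an edgeR adjusted p of 0.212 and passed without 16 h replicate 6 (-1.78, adjusted p = 0.0463).

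Embryos of the same hour differed widely in Tubb4b. Of 48 libraries from 12 h to 24 h, 11 had under 100 CPM. They were 4 of the 5 libraries of 12 h, 4 of the 5 of 14 h, 2 of the 8 of 16 h and 1 of the 9 of 18 h, and no library of 20 h to 24 h was among them. The exceptions in their groups were 12 h replicate 2 (207.0 CPM), 14 h replicate 2 (213.4 CPM), 16 h replicates 6 (79.8 CPM) and 8 (44.98 CPM) and 18 h replicate 9 (45.2 CPM). Tubb2b went the same way in these 5 libraries. It was the highest of its group in 12 h replicate 2 (12.2 CPM) and 14 h replicate 2 (21.8 CPM), and the lowest in 16 h replicates 6 (1.86 CPM) and 8 (2.25 CPM) and 18 h replicate 9 (0.690 CPM).

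In those libraries the summed oocyte and egg markers were lowest of their groups in 12 h replicate 2 (8981 CPM) and 14 h replicate 2 (5738 CPM), and highest in 16 h replicates 6 (9388 CPM) and 8 (8100 CPM) and 18 h replicate 9 (7694 CPM). Their depth ranged from 753300 gene counts in 14 h replicate 2 to 4980703 in 16 h replicate 6. The titles of the 16 h and 18 h libraries of this kind end in the letter b, whose meaning is not stated, as do titles of 3 other 16 h and 4 other 18 h libraries. The part of these markers in the Tubb4b step was not tested.

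**Figure D4:**
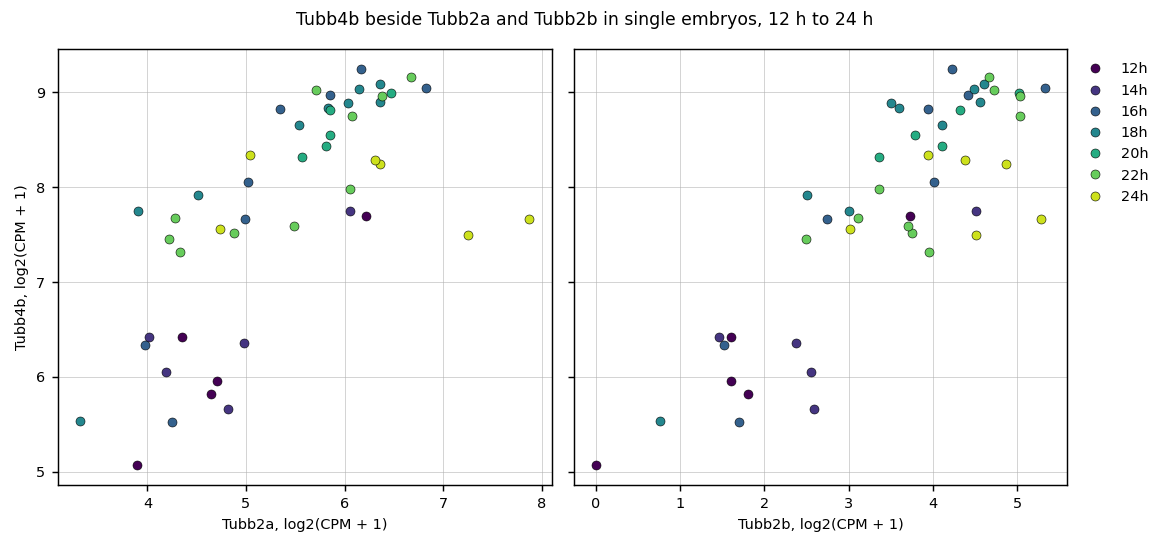
Tubb4b (y axis) beside Tubb2a (left, x axis) and Tubb2b (right, x axis), all as log2(CPM + 1), in each of the 48 embryos of 12 h to 24 h, coloured by hour. The 11 embryos under 100 CPM of Tubb4b, low on the y axis by that cut, had 0.0 to 4.996 CPM of Tubb2b. Two-way separation was not complete, as 18 h replicate 1 (4.675 CPM of Tubb2b) and 22 h replicate 9 (4.613 CPM) lay within that range. By Tubb4b, 12 h replicate 2 (207.0 CPM) and 14 h replicate 2 (213.4 CPM) lie with later embryos.

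The alpha genes and Tubb5 differed widely between embryos of 8 h to 14 h, as did the cumulus and granulosa markers. Of the 15 markers, 10 to 13 had counts in each of these groups, and their sum ranged from 81.5 to 1349 CPM at 8 h, 102.1 to 1525 at 10 h, 116.8 to 1016 at 12 h and 48.2 to 978.7 at 14 h. Amh was at 0 in all 4 of these groups, and Foxl2 in all but 12 h. The sum was made of different markers at 10 h. In replicate 5 Tnfaip6 (616.7 CPM), Ptx3 (523.5) and Hsd17b1 (202.0) led, with Cyp19a1, Inhbb, Star, Fshr and Lhcgr at 0. In the other 10 h embryos Cyp19a1 was at 97.1 to 174.4 CPM, for example 157.5 of a sum of 157.8 CPM in replicate 3. The 10 h library with the highest sum, replicate 5, had 631.7 CPM of Tuba1a, 501.0 of Tuba1b, 298.6 of Tuba1c and 484.1 of Tubb5, but 0 of Tubb2a and Tubb2b and 0.125 of Tubb3. The 6 morula markers summed to 6674 CPM in that library, of which Krt18, a keratin of epithelia, made up 6338 CPM and Krt8 336.0 CPM, with Cdx2 and Fgf4 at 0, while the other 4 embryos of 10 h had 20.4 to 163.5 CPM. The highest morula-marker sums of 12 h and 14 h were in 12 h replicate 5 (290.6 CPM) and 14 h replicate 3 (322.2 CPM), again led by Krt18. In 8 h replicate 2 (1349 CPM of markers) Tuba1a was at 84.4 CPM, in 12 h replicate 5 (1016 CPM) at 38.5 CPM, in 10 h replicate 4 (566.7 CPM) at 57.4 CPM and in 14 h replicate 3 (978.7 CPM) at 25.4 CPM. Over the other 15 libraries of these hours it was 0.916 to 36.9 CPM. The part of these cells in the alpha values was not tested.

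At 36 h, where Tuba1a rose, the cumulus and granulosa sum had a median of 29.8 CPM (range 21.2 to 382.2), against 48.3 CPM (range 34.8 to 130.5) at 24 h. Of the 15 markers 3 were tested there. Cyp11a1, an enzyme of steroid synthesis, rose (65.7 ± 124.1 CPM at 36 h, 3.16 ± 3.87 at 24 h; log2 change 4.53 ± 1.48, edgeR adjusted p = 0.0184), as did Tnfaip6, a protein of the cumulus matrix (11 ± 8.98 and 1.85 ± 3.82; 2.52 ± 1.01, edgeR adjusted p = 0.0445). Cyp19a1, the aromatase, fell (4.06 ± 3.60 and 52.9 ± 36.8; -3.64 ± 0.57, edgeR adjusted p = 8.17e-05; SD, n = 8 and 6). Tuba1a was at 60.2 CPM in 36 h replicate 3, which had the highest marker sum, and at 72.4 CPM in 36 h replicate 2, where the sum was 25.03 CPM. The part of these markers in the rise of Tuba1a was not tested.

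**Figure D5:**
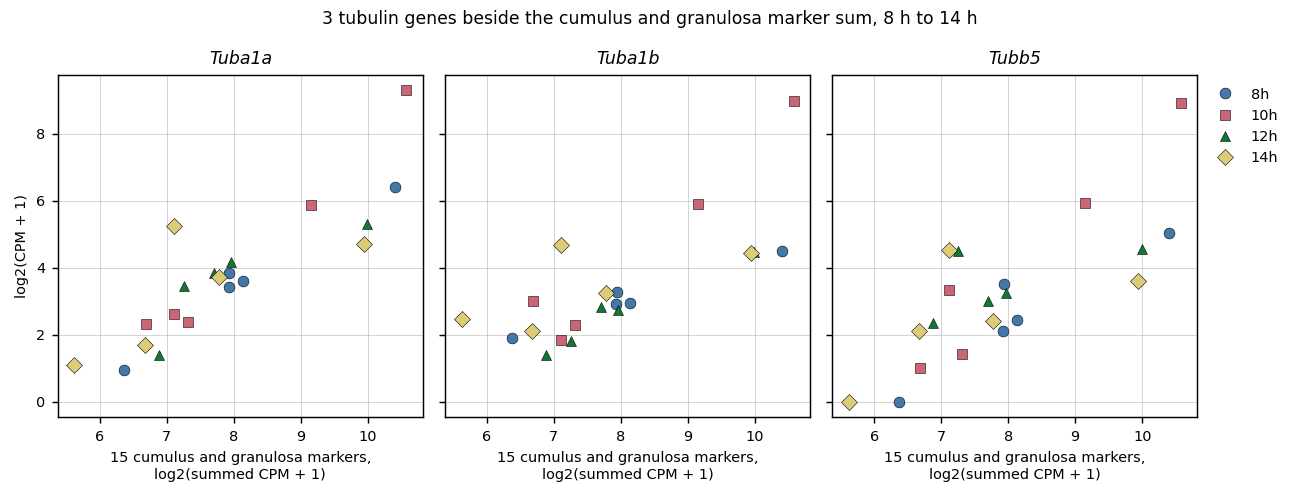
Tuba1a, Tuba1b and Tubb5 (panels, y axis, log2(CPM + 1)) beside the summed level of 15 cumulus and granulosa markers (x axis, log2(summed CPM + 1)) in the 20 embryos of 8 h to 14 h, with a symbol for each hour. The 10 h library at 1525 CPM of markers has the highest value in all 3 panels.

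Without 10 h replicate 5 the 10 h means were 17.7 ± 26.4 CPM for Tuba1a (140.5 with it), 18.1 ± 27.1 for Tuba1b (114.6 with it), 18.0 ± 28.3 for Tubb5 (111.2 with it) and 141.0 ± 26.7 for Tubb3 (112.9 with it; SD, n = 4). In 10 h relative to 8 h, 0 of 8 tubulin genes tested were called by edgeR, with 4 at an unadjusted edgeR p under 0.05, all higher. DESeq2 called 0 of the 4 of them for which it gave an adjusted p, and gave none for Tubb5, Tubb6, Tuba1a and Tuba1b. In 12 h relative to 10 h edgeR also called 0 of 8, with 4 at an unadjusted p, all lower, and DESeq2 again called 0 of 4 and gave no adjusted p for the same genes. The single fit of all libraries called Tubb5, Tuba1a, Tuba1b and Tuba1c in both, higher at 10 h than at 8 h (adjusted p between 0.0023 and 0.0431) and lower at 12 h than at 10 h (0.000778 to 0.0373). Without 10 h replicate 5 and morula replicate 4 that fit called 0 tubulin genes in either, with adjusted p of 0.637 or more. Over all genes 0 of 7915 and 0 of 8311 were called. Without replicate 5, the lowest adjusted p of the 7 tubulin genes tested was 0.997 in the first of these comparisons and 0.694 in the second.

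When the 16 groups were put in order of each gene's mean, neighbours in that order seldom parted. Such an order places the closest means side by side, so overlap of neighbours is likely for any gene. The share over all genes was not counted. The ranges of the libraries overlapped in all 15 neighbouring pairs for Tubb4b, Tubb5, Tubb6, Tuba1a, Tuba1b and Tuba1c. They overlapped in 14 of 15 for Tubb2a (apart: 2 h above 4 h), Tubb2b (0 h above 2 h) and Tubb3 (oocytes above 14 h). These counts include morula replicate 4, on which some overlaps rest. Without it the highest morula had 4.36 CPM of Tubb2a, 2.18 of Tubb3 and 11.2 of Tubb6. The lowest library of the group next above lay higher, at 24.1 CPM (oocytes), 8.27 CPM (36 h) and 19.05 CPM (8 h). Without 10 h replicate 5 and morula replicate 4 the highest group mean was 408 times the lowest for Tubb3 (51.8 with them), 363 times for Tubb2a (71.2 with them) and 285 times for Tubb2b (332 with them), with the lowest in morulae at 0.224 to 1.24 CPM. For the other 6 genes it was 5.93 times (Tuba1b) to 19.6 times (Tubb6).

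Other genes were ranked by the correlation of their log2(mean CPM + 1) with that of each tubulin gene over the 16 groups; all genes of a group are read from the same libraries. Closest to Tubb2a were Gtpbp1 (r = 0.955), Fam192a (0.938) and Ica1l (0.930), and closest to Tubb2b were Ica1l (0.956), Mapk3 (0.949) and Fam192a (0.942). Tubb3 went with B4galt5 (0.987), Prr5l (0.983) and Mtus1 (0.982), and Tubb6 with Hexim2 (0.910), Pcmtd1 (0.886) and Hmga1 (0.863). Tubb5 was closest to Taf6l and Tmsb15l (0.929 each), which was 0.729 and 0.853 without 10 h replicate 5. Tuba1a was closest to the overlapping Gm49450 (0.965), then Runx1 (0.943, or 0.879 without that library), Tuba1b to Gm14150 (0.957) and Gm3226 (0.937), which share 48.1% and 47.3% of its words, and Tuba1c to Gm6682 (0.929) and Lipt2 (0.908). Among the 9 genes, Tuba1a and Tuba1b correlated at 0.892 (0.806 without 10 h replicate 5) and Tubb5 with Tuba1b at 0.826 (0.653 without it), while Tubb4b and Tuba1a were at -0.514.

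The other genes of the tubulin pathway are given as lists, whose counts stand beside the shares of all genes tested: 23.3% higher and 22.5% lower at 0 h relative to oocytes, 19.7% and 19.4% at 12 h relative to 0 h, and 28.2% and 43.5% in morulae relative to 36 h. Of 8 tubulin cofactor and autoregulation genes, 5 were tested at 0 h relative to oocytes, and 3 rose and 0 fell (median log2 change 1.64, against -0.02 for all genes). They were Arl2, a small GTPase of the dimer assembly complex (35.6 ± 17.1 CPM at 0 h, 4.05 ± 2.41 in oocytes), Tbca, a chaperone of beta-tubulin (171.0 ± 51.7 and 51.5 ± 12.1), and Tbcb, a chaperone of alpha-tubulin (62.4 ± 19.2 and 20.5 ± 5.42; SD, n = 5 and 8). At 12 h relative to 0 h, 4 were tested and Arl2 (-3.36 ± 0.52), Tbcb (-2.14 ± 0.35) and Tbca (-1.24 ± 0.23) fell. Of 14 genes of the CCT chaperonin, which folds tubulin, and of prefoldin, which delivers it, 7 of 13 tested rose and 2 fell at 0 h relative to oocytes. In morulae relative to 36 h, 11 of 14 rose and 0 fell (median 2.01, against -0.55 for all genes), among them Pfdn1 (log2 change 3.78 ± 0.37) and Cct4 (315.7 ± 139.9 in morulae, 48.8 ± 16.3 at 36 h; SD, n = 7 and 8). The same comparison had 0 of the 9 tubulin genes higher, or 1, Tubb4b, without morula replicate 4.

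Among 11 other tubulins, at 0 h relative to oocytes, 1 of 8 tested rose and 5 fell (median -0.58), among them Tubd1, the delta-tubulin of centrioles (-2.53 ± 0.34), and Tubg1, the gamma-tubulin that nucleates microtubules (-0.97 ± 0.21). Tuba3a, an alpha isotype, rose (1.00 ± 0.29). At 24 h relative to 12 h Tuba4a rose (2.15 ± 0.39), and it reached 89.9 ± 42.4 CPM at 36 h, against 9.30 ± 1.79 CPM at 0 h (SD, n = 8 and 5). In morulae relative to 36 h, 6 of 7 tested fell, among them Tubg2 (7.08 ± 13.2 CPM in morulae, 202.8 ± 50.4 at 36 h; SD, n = 7 and 8).

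Among 20 microtubule regulators, 1 of 15 tested rose and 12 fell in morulae relative to 36 h (median -2.33). The riser was Stmn3, a stathmin that binds tubulin dimers (3.93 ± 0.55), and the list's largest falls were in Map1b and Mapre2, proteins that bind microtubules along their length or at their ends (-5.67 ± 0.56 and -4.39 ± 0.61). Of 25 tubulin-modifying enzymes, 3 of 16 tested rose and 9 fell in morulae, against 28.2% and 43.5% of all genes. At 0 h relative to oocytes 4 of 12 tested rose and 4 fell (median -0.11), among them Ttll13, of the family of tyrosine-ligase-like enzymes, which fell by 0.80. The largest change of the list was a rise: the modifying enzyme partner Svbp, needed for the removal of the last tyrosine of alpha-tubulin, was at 43.0 ± 12.7 CPM, against 1.88 ± 1.36 CPM (log2 change 4.48 ± 0.33; SD, n = 5 and 8). Of 25 spindle factors and mitotic kinesins, 11 of 21 tested rose and 2 fell in that comparison, against 23.3% and 22.5% of all genes, and 2 rose and 8 fell at 12 h relative to 0 h, against 19.7% and 19.4%. Haus1, a subunit of augmin, which branches spindle microtubules, was among both (3.93 ± 0.26 and -3.79 ± 0.36). The 7 oocyte and egg markers, which are no microtubule genes, also rose in 6 of 7 at 0 h relative to oocytes (median 2.50) and fell in 6 of 7 at 12 h relative to 0 h (median -1.84).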

How the data were processed

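Single oocytes and embryos were profiled by SMART-Seq v4, which primes cDNA on poly(A) tails and does not mark strand, with Nextera XT libraries, per the labels' protocols. The authors deposited expected counts for 55401 genes and 873 repeat families in 96 libraries. Of the non-zero gene values 28.4% are not whole, so reads were shared between places or overlapping genes by an option not given in the sources used here. The tools named are Trimmomatic 0.39, STAR and featureCounts, with mm10 as the build, per the submitters' processing notes.

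The deposited expected counts were rounded to whole numbers. Levels are CPM over gene rows, with library sizes scaled by TMM over all 96 libraries. Each comparison used edgeR 4.0.16 (R 4.3.3) on its pair of groups: filterByExpr, TMM, a robust two-sided quasi-likelihood test, and Benjamini-Hochberg adjustment over all genes tested, with a threshold of 0.05. A standard error is the log2 change divided by the root of F. The procedure was tested on simulated data. DESeq2 1.42.0, library size alone, no filter, unrounded counts, a single fit of all 96 libraries (also without 10 h replicate 5 and morula replicate 4), a replicate block, leaving out each library and leaving out titles ending in b were alternatives. Replicates were compared, and no pair of libraries of a group looked like the same library deposited again (lowest chi-square per degree of freedom 2.45).

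Coordinates, exon lengths and symbols came from the GENCODE M21 annotation (GRCm38, the same assembly as mm10), and promoters from RefSeq (GRCm38.p6). The genes, the lists of related genes and the alternatives were chosen with earlier results of these data known. Named genes are the 9 members, the 3 other genes most like each in group means (highest group mean at least 10 CPM), and up to 3 called genes with the largest change per list and comparison, of which some are printed. The labels name no molecular identifiers that could separate PCR copies. Intervals therefore cover the counting error of reads, with copies taken as separate reads, and are too narrow for molecules where reads are copies. Repeat families were not used here.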

Additional observations from a re-analysis of the deposited data

Results flagged for a closer look

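A library was singled out where its gap to the nearest other library of its group, over the group's range, exceeded Dixon's critical value. Chance does this in about 1 of 20 groups if values are normally distributed, which was not tested for CPM. Over the 9 genes and the groups of 4 to 10 libraries, 24 values met it. Of these, 4 were in 10 h replicate 5: Tubb5 at 484 CPM (1.00 to 59.98 CPM in the others), Tubb6 at 164 CPM (30.04 to 48.8), Tuba1a at 632 CPM (4.01 to 57.4) and Tuba1b at 501 CPM (2.61 to 58.7). A further 4 were in morula replicate 4, the library of 10223 gene counts: Tubb2a at 36.9 CPM (0.0 to 4.36 in the others), Tubb3 at 36.9 CPM (0.0 to 2.18), Tubb6 at 73.7 CPM (0.402 to 11.2) and Tuba1a at 36.9 CPM (1.18 to 15.3). These values are 1 or 2 counts each.

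Replicate 2 of 12 h was high in Tubb2a (73.4 CPM, 13.9 to 25.1 in the others) and Tubb2b (12.2 CPM, 0.0 to 2.50). Replicate 2 of 14 h was high in Tubb2b (21.8 CPM, 1.76 to 5.00) and Tubb4b (213 CPM, 49.6 to 84.3). Replicate 1 of 22 h was high in Tubb3 (481 CPM, 83.5 to 214) and Tubb6 (155 CPM, 12.4 to 66.1). Tubb3 stood at 354 CPM in 12 h replicate 4 (123.2 to 162.5 in the others).

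Tuba1a was high in 8 h replicate 2 (84.4 CPM), 16 h replicate 6 (21.9 CPM) and 18 h replicate 3 (18.4 CPM), where the others reached 13.3, 8.49 and 6.89 CPM. Tuba1b was high in 12 h replicate 5 (21.3 CPM, 1.63 to 6.12 in the others) and Tuba1c in 24 h replicate 1 (94.4 CPM, 27.0 to 44.3). Tubb2a was high in 20 h replicate 5 (87.5 CPM, 46.5 to 56.8 in the others) and 36 h replicate 3 (162 CPM, 47.2 to 98.4). Tubb6 was high in 2 h replicate 1 (115.97 CPM, 71.3 to 82.9), and Tubb2b in morula replicate 3 (0.95 CPM from 2 counts, 0.0 to 0.392).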

How the results depend on the processing

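No value of a tubulin gene changed direction under an alternative while called. A single fit of all 96 libraries called 4 of the 9 genes at 0 h relative to oocytes (9 in the pair) and 4 at 36 h relative to 0 h (7 in the pair), and the cause was not tested. Over the 12 intervals 3 tubulin tests were called, against 5 with library size alone and 7 with DESeq2 (each with all 3), 5 with no filter (2 of the 3) and 9 with the single fit (0 of the 3). Of those 9, 8 were at 10 h relative to 8 h and 12 h relative to 10 h, and 1 was Tubb4b at 16 h relative to 14 h. Without 10 h replicate 5 and morula replicate 4, an alternative chosen after seeing the data, the single fit called 1 over the intervals (Tubb4b again) and 6, 4, 3, 7, 5 and 7 tubulins in the 6 comparisons. Leaving out each library gave 8 to 9 tubulin calls at 0 h relative to oocytes, 4 to 6 at 12 h relative to 0 h, 1 to 3 at 24 h relative to 12 h, 7 to 8 at 36 h relative to 24 h, 7 at 36 h relative to 0 h, 7 to 8 in morulae relative to 36 h and 1 to 5 over the intervals. The replicate block called 8, 4, 3, 7, 7 and 7 tubulins in the 6 comparisons. Deviations of same-numbered titles correlated between -0.171 and 0.158. No reference for unpaired libraries was computed, so this does not settle whether title numbers pair the libraries. Over all genes, calls at 0 h relative to oocytes were 4371, against 1601 in the single fit, and at 12 h relative to 0 h 3206, against 1672. At 24 h relative to 12 h they were 2397, against 4068 without titles ending in b, and in morulae 8045, against 12316 with DESeq2, 16826 with no filter and 13219 in the single fit. Depth limits Tubb2a, Tubb2b and Tubb3 in morulae, at 18, 3 and 10 counts over the group.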
